A study of Drosophila melanogaster with 25 samples.

Results

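The neuropeptide and peptide hormone genes of the Drosophila melanogaster brain are 38 genes named by symbol, the precursors of neuropeptides and of insulin-like peptides, among 16060 genes of the deposited table. They were chosen by their FlyBase symbols and not by their values. Brain RNA was sequenced in 25 libraries: males after long-term photodynamic exposure (PDE, n = 6), females after PDE (n = 7), male controls (n = 7) and female controls (n = 5). Photodynamic exposure means light given together with a photosensitiser, which generates reactive oxygen species, and the series presents it as a model of oxidative stress. Its details (photosensitiser, light, dose, duration), strain, age and the number of brains per library are not stated in the labels. Controls are called control or normal, with no mock exposure named. Nothing in the labels ties the libraries to separate flies or cultures, so p-values measure the spread between these libraries, which may be technical in part.

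Neuropeptides are cut out of longer precursor proteins in the secretory pathway, packed into dense-core vesicles and released by small groups of neurons or endocrine cells. They act mostly through G protein-coupled receptors, while the insulin-like peptides act through a receptor tyrosine kinase. In the fly brain they set the timing of activity and sleep, feeding, water balance, stress responses, courtship and moulting. Many are made by only a few cells per brain, so the RNA of one cluster of neurons can carry the whole signal of a gene. In bulk brain RNA, fewer cells of a type and less RNA per cell cannot be told apart.

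All levels are deposited RPKM, which divide a gene's reads by its length and by the size of the library. Library totals, recovered from the steps between low RPKM values, ran from 11.2 to 28.3 M reads in male PDE, 21.6 to 48.3 M in female PDE, 27.8 to 58.7 M in male controls and 8.88 to 26.1 M in female controls. Every library matched its labelled sex by the male-specific RNA roX1, at 1829.6 to 2160.1 RPKM in the 13 male libraries and 9.58 to 36.8 RPKM in the 12 female ones. The neuronal genes nSyb, Syt1, brp and Syn, which mark the labelled tissue, averaged 291, 82.5, 27.3 and 31.6 RPKM. Retina came along in varying amounts: the summed RPKM of 13 retina markers ran from 121 to 8557 in male PDE, 90.1 to 1935 in female PDE, 80.9 to 9403 in male controls and 92.3 to 9189 in female controls, with Arr2 at 0 throughout and 12 tested. The 5 libraries richest in retina are male PDE 3, male controls 4, 5 and 6 and female control 4, and values without them are given for the calls between the sexes and for Nplp3, Akh and Pdf. No pair of libraries held identical values.

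Of the 38 genes, no row carries the identifier that the annotation gives Ilp2 or Nplp2, and both were not analysed here. Another 5 were listed at 0 in all 25 libraries: the insulin-like peptides Ilp3 and Ilp5, hug, the precursor of the feeding peptide hugin, Dsk, the precursor of the satiety peptides drosulfakinins, and amn, a memory gene. Each of these 5 lies wholly inside the span of a gene on the opposite strand: Ilp3 in CG32052, Ilp5 in CG43897, hug in Octbeta3R, Dsk in CR33294 and amn in Hers. Table-wide, of 1762 genes with a span wholly covered by other genes, 1623 (92.1%) were at 0 in every library, against 724 of 9583 genes with no overlap (7.56%). The neuronal gene elav, covered over 98.6% of its span by arg, averaged 0.01 RPKM in this brain RNA. A listed 0 of these 5 peptide genes cannot be read as absence of their RNA. ITP, with 87.6% of its span under CG4622, and Lk and ETH, both wholly covered, did have reads, as did Tk, SIFa, Dh44 and CCAP, which are covered over 37.5%, 19.2%, 9.4% and 5.19% of their span. How the authors counted reads in overlaps, and whether by strand, is not stated, so the reads of these 7 genes may be incomplete or shared.

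The remaining 31 genes had reads, and 27 of them had at least 1 RPKM in at least 5 libraries and were tested. Because the deposited lengths include introns, levels of different genes were compared after replacing the gene length in RPKM by the summed exon length, here called the exon level, given as mean ± SD over 25 libraries. The length behind the RPKM matched the annotated span in 30 of these 31 genes, and in Dh31 it did not. The exon level counts every read of a gene as exonic, and the share of intron reads was not tested. Relative to RPKM it raises genes with long introns most. By deposited RPKM sNPF averaged 32.2, below Ms (160), Crz (148), Pdf (136) and Nplp1 (102). By exon level the highest was sNPF, short neuropeptide F, a feeding peptide also made by many mushroom body neurons, at 374 ± 27.4 (range 319 to 432). Next came Ms, myosuppressin, which slows gut and heart muscle, at an exon level of 309 ± 64.3, and Nplp1, a precursor found among others in clock neurons, at 301 ± 24. Dh44, the diuretic hormone related to vertebrate corticotropin-releasing factor, had 219.7 ± 54.7, and Crz, the stress peptide corazonin, 196 ± 54.6. The mean ± SD ranges of sNPF, Ms and Nplp1 overlapped from each to the next, and those of Nplp1 and Dh44 did not.

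The next 6 genes overlapped from neighbour to neighbour except between Tk and AstC. Dh31, a wake-promoting diuretic hormone of clock neurons, had 188 ± 20.2, Capa, a precursor of peptides that act on the Malpighian tubules, 178 ± 55.8, and Pdf, the main output peptide of the circadian clock, 136 ± 30.7. Tk, the precursor of tachykinins, had 134 ± 11.7, AstC, related to vertebrate somatostatin, 107 ± 15.1, and Orcokinin 99.9 ± 20.7. From Trissin (61.9 ± 11.8) through NPF, the fly relative of neuropeptide Y (58.98 ± 12.9), the myoinhibitory peptide precursor Mip (55.99 ± 8.53), the antidiuretic ion transport peptide ITP (53.7 ± 9.45), proctolin Proc (52.4 ± 12.6) and the satiety peptide AstA (50.6 ± 4.39) to SIFa (48.7 ± 8.96), made by a few cells of the pars intercerebralis, neighbouring genes overlapped throughout. No overlap remained between Orcokinin and Trissin, nor between SIFa and the next gene, CCHa1.

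CCHa1, a peptide of gut endocrine cells and some clock neurons, had an exon level of 20.2 ± 2.8, FMRFa, the precursor of muscle-modulating peptides, 19.3 ± 5.9, CCHa2, a nutrient-dependent hormone of fat body and gut, 18.2 ± 3.34, and Nplp3 15 ± 6.65. The diuretic leucokinin Lk had 6.79 ± 1.6, Akh, the glucagon-like hormone of the corpora cardiaca next to the brain, 4.06 ± 12.8, and AstCC, the paralogue of AstC, 3.16 ± 0.852. CCAP, a peptide of ecdysis and heart rate, had 1.79 ± 0.39, CNMa, a clock neuron peptide, 1.7 ± 0.453 and RYa, the precursor of RYamides, 1.27 ± 0.416. Eh, the eclosion hormone, at 0.737 ± 1.38, Nplp4 at 0.665 ± 0.266 and ETH, the ecdysis-triggering hormone of peripheral endocrine cells, at 0.338 ± 0.151, were lowest. Of 30 pairs of neighbours in this order, 25 had overlapping mean ± SD ranges, and the last of the 5 gaps lay between AstCC and CCAP. Akh and Eh had an SD above the mean.

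**Figure D1:**
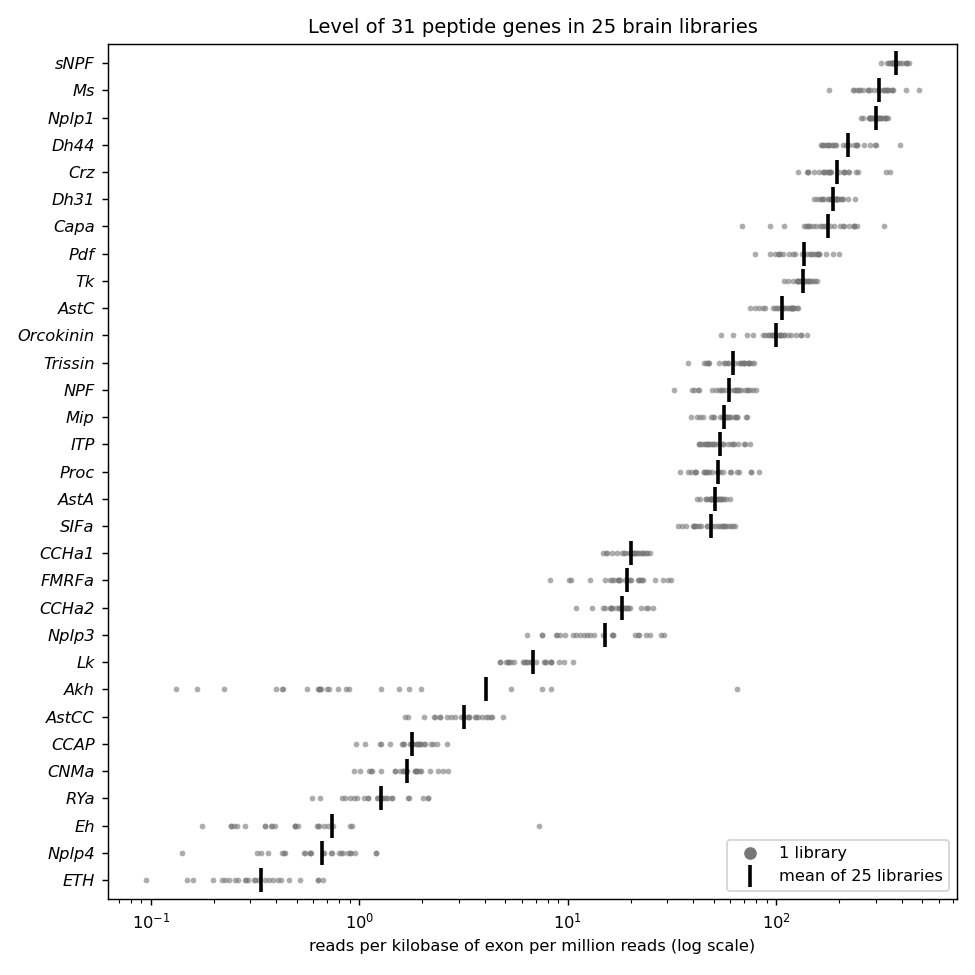
Exon level (RPKM recomputed with the exon length, log scale) of the 31 peptide genes with reads, 1 grey point per library and a black bar at the mean of 25 libraries. The levels span from sNPF at 374 to ETH at 0.338, and the single high libraries of Akh and Eh stand apart from their points; libraries at 0 are not drawn.

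The series asks which genes respond to long-term PDE. No peptide gene passed the test in either sex: limma called 0 of 27 in females, where 0.0751% of all 7985 genes tested were called, and 0 of 27 in males, against a background of 0.175%. Averaged over the sexes 0 of 27 were called, against 0.413%, and for the difference between the male and the female change 0 of 27, against 0.0%. With limma voom on recovered reads the counts were also 0. In no gene of the 27 did the PDE and control libraries stand fully apart, in females or in males, as they did in 0.313% and 0.363% of all genes. At an unadjusted p under 0.05 there were 3 genes in females (Crz, NPF and Dh31), 1 in males (CCHa1), 1 on average (Crz) and 1 for the difference (NPF); of all genes, 4.8%, 3.99%, 6.41% and 2.22% had such a p. The averaged change was below 0 in 24 of 27 genes, with a median of -0.07 on the log2(RPKM + 1) scale beside 0.01 over all genes. In females 22 of 27 were below 0 (median -0.12) and in males 16 of 27 (median -0.02). This scale understates differences of genes with a low RPKM. Of the markers of other tissues, 12 of 12 retina markers were below 0 in males (median -0.72) and 8 of 12 in females (median -0.12). In each sex 5 of 6 fat body markers were below 0 and 5 of 5 haemocyte markers above 0, none of them called. Averaged medians were -0.42 for retina, -1.02 for fat body and 0.37 for haemocytes, larger in size than that of the peptide genes. An unadjusted p under 0.05 was reached by 0, 4 and 2 of these markers. Of the glia markers 3 of 3 tested were above 0 in each sex (averaged median 0.15, 2 with an unadjusted p under 0.05 and 0 called), with moody at 0 throughout. Of the neuron markers 3 of 4 tested were below 0 in each sex and 4 of 4 on average (median -0.03, 1 with such a p and 0 called). The part of these tissues and cell types in the peptide values was not tested, apart from the retina covariate given for single genes.

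How large a difference the libraries leave possible varied from gene to gene. The 95% interval of the averaged PDE minus control difference lay within 0.5 of 0 on the log2(RPKM + 1) scale for 23 of 27 genes. It reached beyond that limit for Akh, Crz, Capa and Nplp3. For low genes such as RYa and CCAP (mean 1.27 and 1.49 RPKM) this limit allows a larger change in RPKM itself. In females it lay within that limit for 16 genes and in males for 21. The narrowest were those of Nplp1, -0.08 to 0.06 around -0.01, and sNPF, -0.08 to 0.09 around 0.0034.

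Among the peptides of stress and water balance, Crz (FBgn0013767; 3R, 14314854 to 14315716, + strand) had the smallest p of the 27 genes in the average over the sexes. It had 95.8 to 169 RPKM (median 137) in female PDE brains, against 267, 255, 128, 167 and 151 RPKM in female controls. It had 106 to 159.7 RPKM (median 111) in male PDE brains, against 122 to 186 RPKM (median 137) in male controls. The groups overlapped in both sexes, with 6 of 7 female PDE libraries below the control median. The PDE minus control difference in log2(RPKM + 1) was -0.41 (SE 0.169, limma adjusted p = 0.958) in females and -0.28 (SE 0.16) in males, and the average was -0.35 (SE 0.116, limma adjusted p = 0.407). Of this group Dh44 averaged 43.3 ± 8.01 RPKM in female PDE and 51.5 ± 15.2 RPKM in female controls, with a difference of -0.22 (SE 0.158). In males it averaged 40.8 ± 9.12 RPKM after PDE and 35.4 ± 4.82 RPKM in controls, with a difference of 0.19 (SE 0.15). Capa had 35.01 to 168 RPKM (median 97.1) in female PDE against 86.8, 108, 121, 74.7 and 114 RPKM in female controls, and 55.8 to 88.3 RPKM (median 76.7) in male PDE against 47.6 to 121 RPKM (median 92.3) in male controls. The averaged differences of Capa, Lk and RYa were -0.16, -0.13 and -0.06, none past the test, with 5 to 25 reads per library for RYa.

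Among the peptides of clock and arousal neurons, Dh31 had 14.5 to 17.6 RPKM (median 16.2) in female PDE brains, against 20.02, 18.6, 18.1, 17.4 and 18.5 RPKM in female controls. All 7 female PDE libraries lay below the control median, and the highest of them lay above the lowest control. The female difference was -0.18 (SE 0.0747, limma adjusted p = 0.979). In males Dh31 had 15.5 to 22.8 RPKM (median 18.5) after PDE, against 15.8 to 20.9 RPKM (median 18.7) in controls, a difference of 0.01 (SE 0.0709). CCHa1 had 2.92 to 4.04 RPKM (median 3.5) in male PDE brains, against 3.02 to 4.75 RPKM (median 4.22) in male controls. All 6 male PDE libraries lay below the control median, and male control 5 lay among them while the other 6 controls lay above all of them. The male difference was -0.18 (SE 0.0849, limma adjusted p = 0.9999). CCHa1 in females had 3.68 to 4.73 RPKM (median 3.94) after PDE, against 4.58, 4.37, 3.04, 4.46 and 4.88 RPKM in controls.

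Pdf (FBgn0023178; 3R, 26455462 to 26456141, minus strand), the clock output peptide, had 104 to 160.3 RPKM (median 140.4) in female PDE brains, against 93.4, 147, 78.8, 173 and 200.4 RPKM in female controls. In males it had 98.4 to 186 RPKM (median 109) after PDE, against 108 to 158 RPKM (median 149.6) in controls. The female control and male PDE libraries spread widest. Its difference was 0.07 (SE 0.195) in females and -0.17 (SE 0.186) in males, and the averaged interval ran from -0.33 to 0.23. ITP differed by -0.12 (SE 0.101) in females and 0.01 (SE 0.0958) in males. Trissin had 31.1 to 60.4 RPKM (median 54.7) in female PDE, against 61.1, 61.1, 37.1, 64.3 and 63.1 RPKM in female controls, with a difference of -0.26 (SE 0.162); the groups overlapped through female control 3 alone. Neither passed the test. CNMa reached 1 RPKM in fewer than 5 libraries, with 0.383 to 0.685 RPKM (median 0.457) in male PDE and 0.599 to 0.806 RPKM (median 0.749) in male controls, and 0.469 to 1.03 RPKM (median 0.679) in female PDE against 0.635, 1.09, 0.963, 0.763 and 0.77 RPKM in female controls. With limma voom on recovered reads, 27 to 211 per library, its log2 change was -0.61 (SE 0.178, adjusted p = 0.442) in males and -0.43 (SE 0.125, adjusted p = 0.23) on average.

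Among the peptides of feeding and metabolism, NPF had 11.2 to 20.1 RPKM (median 15.1) in female PDE brains, against 19.2, 21.9, 15.4, 21.1 and 20.7 RPKM in female controls. All 7 female PDE libraries lay below the control median, and the groups overlapped through female control 3 and the highest PDE libraries. In males it had 12.1 to 22.7 RPKM (median 17.4) after PDE, against 9.13 to 20.5 RPKM (median 16.1) in controls. The difference was -0.37 (SE 0.172, limma adjusted p = 0.999) in females and 0.12 (SE 0.164) in males. The male minus the female difference was 0.49 (SE 0.238, limma adjusted p = 0.999), so a difference between the sexes was not shown. sNPF had 29.8 to 36.1 RPKM (median 32.1) in female PDE and 32.5, 32.4, 36.5, 30.7 and 32.3 RPKM in female controls, and 27.4 to 37.1 RPKM (median 32.7) in male PDE and 29.1 to 33.7 RPKM (median 31.6) in male controls. The differences of sNPF were -0.04 (SE 0.0615) in females and 0.04 (SE 0.0585) in males, and the groups overlapped. SIFa had 31.99 to 57.9 RPKM (median 39.5) in female PDE against 49.9, 56.1, 37.98, 53.9 and 55.4 RPKM in female controls, and 30.8 to 50.3 RPKM (median 42.3) in male PDE against 36.4 to 51.5 RPKM (median 44.5) in male controls. The averaged differences of SIFa, CCHa2 and AstA were -0.15, -0.08 and -0.07, with no call.

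In the group of muscle-active and modulatory peptides 0 of 8 tested genes were called, and the averaged differences ran from -0.10 (AstC) to 0.10 (FMRFa), with Proc at 0.10. Ms, the second highest gene by exon level, had 92.8 to 216 RPKM (median 176) in female PDE and 249.6, 176, 121, 170 and 189 RPKM in female controls. In males it had 122 to 185 RPKM (median 157) after PDE and 126 to 169.5 RPKM (median 142) in controls. Female PDE 5 was the lowest library of Ms and female control 1 the highest. AstC had 17.2 to 27.5 RPKM (median 25.1) in female PDE against 27.9, 26.8, 18.9, 26.9 and 29.3 RPKM in female controls, and 20.3 to 28.8 RPKM (median 24.8) in male PDE against 23.2 to 27.7 RPKM (median 24.4) in male controls. The ecdysis peptide CCAP differed by -0.13 on average with no call. Eh and ETH were under the minimum for testing, with at most 143 and 23 reads per library. Of the neuropeptide-like precursors, Nplp1 differed by -0.03 (SE 0.0498) in females and -0.0009 (SE 0.0473) in males.

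**Figure D2:**
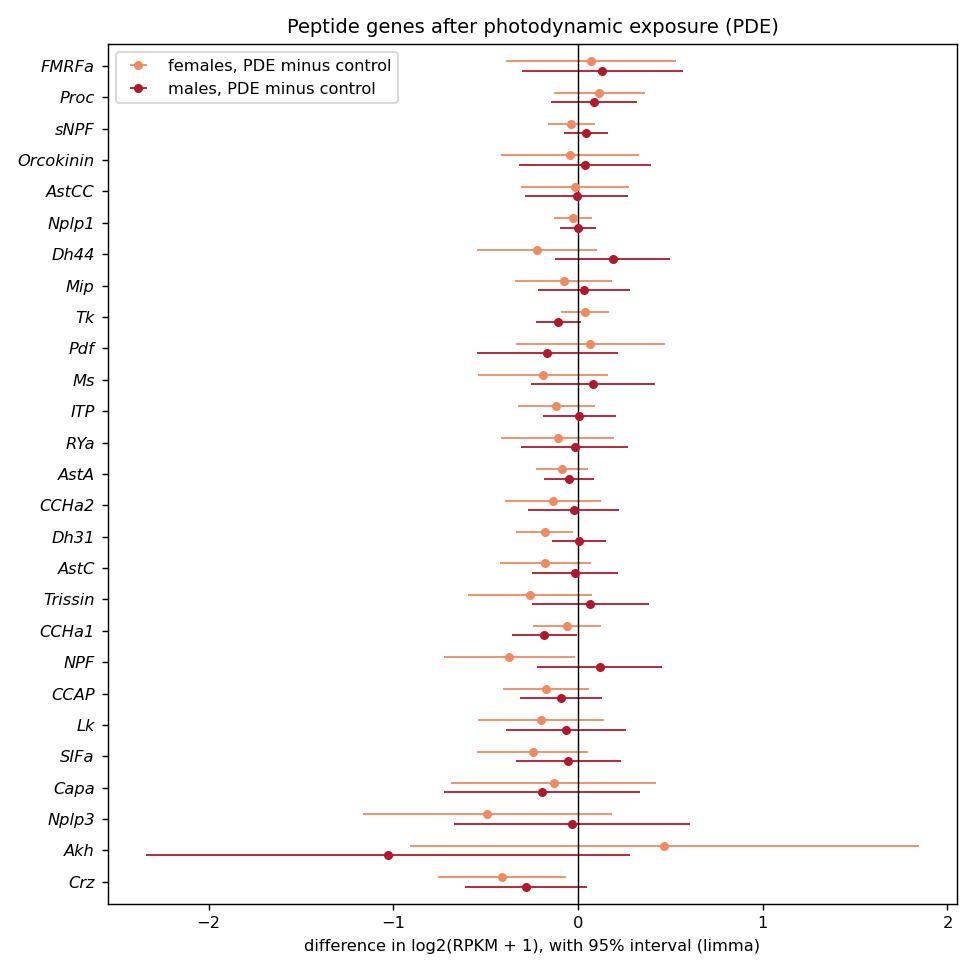
Difference after PDE of the 27 peptide genes tested, as the difference in log2(RPKM + 1) between PDE and control libraries, with limma's 95% interval, females in orange and males in red. Most intervals include 0 and none of the genes passed the adjusted threshold; Crz, at the bottom, is below 0 in both sexes, and Akh has the widest intervals.

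The libraries also let the sexes be compared, once among exposed flies and once among controls, in pairs of groups that share no library. Proctolin RNA was called lower in male than in female brains in both, and Nplp1 and ITP RNA among controls. Of these calls only that of Proc after PDE held whichever single library was left out. Among controls limma called 3 of 27 lower in males (Proc, Nplp1 and ITP) and 0 higher, where 3.17% of all genes were called lower and 4.75% in either direction. Among exposed flies it called 1 of 27 lower in males (Proc) and 0 higher, where 3.27% of all genes were called lower and 4.92% in either direction. The median difference over the 27 genes was -0.15 among controls and -0.03 after PDE, beside -0.01 and -0.01 over all genes. In controls 23 of 27 were below 0 and after PDE 15 of 27. At an unadjusted p under 0.05 there were 6 of 27 in controls and 5 of 27 after PDE, where 16.0% and 15.7% of all genes had such a p. The 6 include Akh, which passed the filter only through the male controls, so its difference among controls is selected by the filter.

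Proc (FBgn0045038; 2L, 7864642 to 7871432, minus strand) encodes proctolin, a peptide that strengthens muscle contraction and acts as a co-transmitter. It had 10.1 to 15.1 RPKM (median 13.5) in male PDE brains, against 14.3 to 24.1 RPKM (median 17.6) in female PDE brains. Every male PDE library lay below the female PDE median, and the groups overlapped between 14.3 and 15.1 RPKM. Proc had 10.95 to 15.2 RPKM (median 11.9) in male controls, against 16.2, 18.8, 17.4, 13.4 and 19.3 RPKM in female controls. The male minus female difference was -0.46 (SE 0.113, limma adjusted p = 0.0171) after PDE and -0.43 (SE 0.119, limma adjusted p = 0.0376) among controls. After PDE the call held whichever single library was left out, and of 37 alternatives a fit on the 2 exposed groups alone missed the threshold (limma adjusted p = 0.0546).

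Nplp1 (FBgn0035092; 2R, 25032377 to 25040377, + strand) encodes a precursor of several short peptides. It had 87.6 to 102 RPKM (median 97.3) in male controls, against 112, 104, 111, 104 and 114 RPKM in female controls. The 2 control groups did not overlap, as for 1.89% of all genes in this direction. The difference was -0.18 (SE 0.0498, limma adjusted p = 0.0349). After PDE it had 86.1 to 105 RPKM (median 94.9) in males, against 95.03 to 116 RPKM (median 107) in females, a difference of -0.16 (SE 0.0473, limma adjusted p = 0.0565) with all 6 male libraries below the female median. The value after PDE passed the threshold with voom on recovered reads (adjusted p = 0.0494) and without female PDE 2, male PDE 6 or male control 4 (adjusted p of 0.0181 to 0.049).

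ITP (FBgn0035023; 2R, 24537421 to 24558961, + strand) encodes ion transport peptide. It had 9.42 to 11.6 RPKM (median 10.2) in male controls, against 15.2, 12.8, 12.1, 14.3 and 13.6 RPKM in female controls, and the 2 groups did not overlap. The difference was -0.36 (SE 0.101, limma adjusted p = 0.0399). After PDE ITP had 9.21 to 13.1 RPKM (median 10.2) in males, against 9.62 to 16.2 RPKM (median 12.02) in females, and the groups overlapped. That difference was -0.23 (SE 0.0958, limma adjusted p = 0.212). The 2 differences of ITP were 0.13 apart (SE 0.139, limma adjusted p = 0.999), so that they differ from each other was not shown. Most of the ITP span lies under CG4622, so its reads may be incomplete in all groups.

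The calls among controls lay close to the threshold. Leaving out any of 10 libraries ended the call of ITP (female control 1, 2, 4 or 5, or male control 1, 2, 4, 5, 6 or 7; adjusted p of 0.0544 to 0.131), and 10 that of Proc (female control 1, 2, 3 or 5, or male control 1, 2, 4, 5, 6 or 7; 0.0515 to 0.102). For Nplp1 it was 7 (female control 1, 3 or 5, or male control 2, 4, 6 or 7; 0.0531 to 0.0955), and quantile normalization and median centring gave 0.134 and 0.132, array weights 0.0502 and the 2 control groups alone 0.0696. With no filter on low values ITP and Proc had 0.064 and 0.0599.

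Markers of other tissues moved with sex beside these genes. All 12 tested retina markers had a male minus female difference above 0, with a median of 1.02 after PDE and 1.55 among controls and 0 called. The 7 fat body markers, yolk proteins among them, summed to 39.2 to 71.1 RPKM in male PDE against 188 to 2448 RPKM in female PDE. In male controls they summed to 43.5 to 112 RPKM, against 97.8 to 5999 RPKM in female controls. Of 6 tested, 4 were called lower in males in each pair of groups. Their differences ran from -4.16 to -0.16 among controls and from -5.05 to -0.0007 after PDE. The yolk protein genes Yp1, Yp2 and Yp3 had the highest means of these markers, at 255.3, 168.4 and 114.6 RPKM over all libraries. Whether these genes follow the amount of fat body in both sexes was not tested, so the sum cannot be read as that amount. Of 5 haemocyte markers tested 4 were below 0 in each, with 0 called and medians of -0.63 among controls and -0.49 after PDE. An unadjusted p under 0.05 was reached by 4 of 5 among controls and 2 of 5 after PDE, all lower in males. Of all genes 16.0% and 15.7% had such a p in either direction. The summed level of 6 haemocyte markers was 35.1 to 46.5 RPKM in male controls against 32.4 to 67.6 RPKM in female controls. Most of that sum is crq, with a mean of 35.4 RPKM over all libraries. With the retina markers as a covariate the male minus female difference among controls was -0.33 for ITP (limma adjusted p = 0.0935), -0.15 for Nplp1 (0.087) and -0.37 for Proc (0.0952), beside -0.36, -0.18 and -0.43 without it. Without the 5 retina-rich libraries, which are 3 of the 7 male and 1 of the 5 female controls and 1 male PDE library, the differences were -0.33 for ITP (0.286), -0.18 for Nplp1 (0.12) and -0.48 for Proc (0.117). With these 2 alternatives Proc after PDE stayed called. The part of fat body and haemocyte RNA in these values was not tested.

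Dh44, Crz and Akh among controls, and Tk, Dh31, ITP and Nplp1 after PDE, had an unadjusted p under 0.05 and no call. For Akh, whose difference is selected by the filter, the values are given below as a description. Dh44 had 31.4 to 42.6 RPKM (median 33.4) in male controls, against 74.9, 46.7, 57.5, 36.9 and 41.5 RPKM in female controls. All 7 male libraries lay below the female median and the groups overlapped, with a difference of -0.49 (SE 0.158, limma adjusted p = 0.0782). With single libraries left out the limma adjusted p ran from 0.0287 without female control 4, the 1 removal of 25 with a call, to 0.293 without female control 1. After PDE the Dh44 difference was -0.09 (SE 0.15). Crz differed by -0.36 (SE 0.169, adjusted p = 0.296) among controls and -0.23 (SE 0.16) after PDE. Tk had 15.6 to 19.7 RPKM (median 18.3) in male PDE brains, against 18.4 to 22.1 RPKM (median 20.6) in female PDE brains. Its difference was -0.17 (SE 0.06004, limma adjusted p = 0.103) after PDE and -0.03 (SE 0.0632) among controls. The Tk libraries of the 2 exposed groups overlapped. Dh31 had the opposite sign after PDE, with a difference of 0.18 (SE 0.0709, limma adjusted p = 0.18), and had -0.01 (SE 0.0747) among controls.

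**Figure D3:**
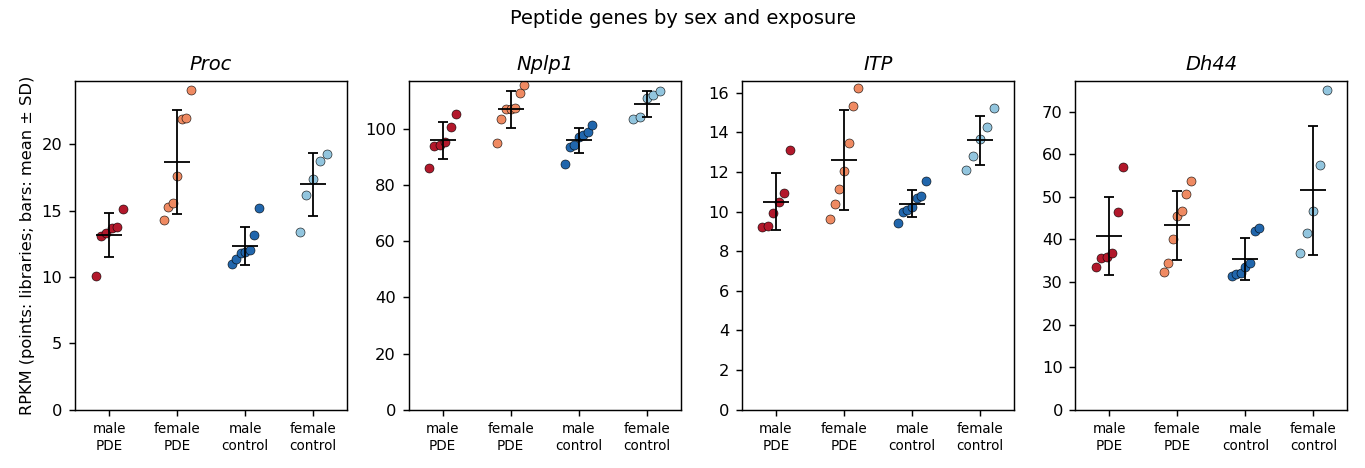
RPKM of Proc, Nplp1, ITP and Dh44 in every library, 1 point each, with bars for the mean ± SD of each group; male PDE in red, female PDE in orange, male controls in dark blue and female controls in light blue, points sorted by value and y axes from 0. The male control points lie below every female control point in Nplp1 and ITP, and Proc is lower in males in both pairs of groups.

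Of 39 receptors of neuropeptides and peptide hormones, not only of the 38 members, CNMaR, which lies inside fry, was at 0, 38 had reads and 29 were tested. None was called for PDE in females, in males, on average or for the difference between the sexes, where 0.0751%, 0.175%, 0.413% and 0.0% of all genes were called. At an unadjusted p under 0.05 there were 2, 0, 1 and 1 of 29, where 4.8%, 3.99%, 6.41% and 2.22% of all genes had such a p. The smallest averaged p was that of Proc-R, the proctolin receptor. It had 3.97 to 5.24 RPKM (median 4.35) in female PDE against 2.53 to 4.27 RPKM (median 4.07) in female controls, and 4.06 to 5.21 RPKM (median 4.45) in male PDE against 3.4 to 4.26 RPKM (median 3.97) in male controls. Its averaged difference was 0.18 (SE 0.0576, limma adjusted p = 0.343). CCKLR-17D3, a drosulfakinin receptor, CrzR, the corazonin receptor, and SPR, which binds sex peptide and Mip, followed with averaged differences of 0.08, 0.13 and -0.05.

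Between the sexes 2 of 29 receptors were called lower in male than in female PDE brains, where 3.27% of all genes tested were called lower, and 0 of 29 among controls, against 3.17%. AstA-R1 (X, 3574536 to 3666724), a receptor of allatostatin A, had 1.72 to 2.27 RPKM (median 2.09) in male PDE brains, against 2.36 to 3.02 RPKM (median 2.83) in female PDE brains, and the groups did not overlap, as for 2.09% of all genes in this direction. The difference was -0.29 (SE 0.054, limma adjusted p = 0.00111). Among controls AstA-R1 had 2.03 to 2.3 RPKM (median 2.1) in males, against 2.09 to 2.74 RPKM (median 2.57) in females, a difference of -0.17 (SE 0.0568, limma adjusted p = 0.0907). The AstA-R1 difference after PDE was called under all 37 alternatives. Pdfr (X, 2552206 to 2578640), the receptor of Pdf, had 2.27 to 3.07 RPKM (median 2.67) in male PDE brains, against 2.94 to 3.76 RPKM (median 3.2) in female PDE brains, a difference of -0.21 (SE 0.0587, limma adjusted p = 0.0327). Its call was lost without any of 8 libraries (female PDE 2, 4 or 5, or male PDE 1, 2, 3, 4 or 6; 0.0512 to 0.0941) and missed the threshold under quantile normalization (0.0825), median centring (0.0841), with no filter (0.0538), in the 2 groups alone (0.0726) and without the 5 retina-rich libraries (0.0681). Among controls Pdfr differed by -0.16 (SE 0.0618, adjusted p = 0.182). Of the 2 peptides, AstA differed by -0.04 (95% interval -0.17 to 0.10) and Pdf by -0.14 (95% interval -0.53 to 0.24) between male and female PDE brains, with no call.

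Of 11 genes listed for peptide processing and release 10 were tested and 0 called in any of the 6 comparisons. Of all genes tested 0.0% to 4.92% were called in these comparisons. The prohormone convertase amon averaged 47.8 RPKM, and its helper protein 7B2 418 RPKM. The smallest averaged p was that of the furin-type protease Fur2, with a difference of 0.05 (SE 0.0202, limma adjusted p = 0.505), followed by Cadps (0.06), 7B2 (-0.04) and Fur1 (0.03). Of 12 other peptide hormones 10 had a row, 3 of these were at 0 (Ilp4, Ilp6 and natalisin, all inside another gene), and 3 were tested. Ptth, Lst and Gpb5 had averaged differences of -0.12, 0.27 and -0.01, with no call in any comparison.

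Within the groups, some peptide genes varied together from library to library. Values were centred on their group mean, so that neither PDE nor sex enters, and all 351 pairs of the 27 genes were compared over 25 libraries, a family chosen after the values were seen. The median correlation was 0.22, beside 0.10 over all pairs of the 7985 genes, and 77.5% of the pairs were positive, beside 60.5%. An r of 0.7 or more was reached by 15 pairs (4.27%), beside 2.59% of all gene pairs. The p-values below come from permutation within groups, adjusted over the 351 pairs.

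Trissin, AstC, Ms and Orcokinin had the highest correlations. Trissin and AstC had r = 0.94 (adjusted permutation p = 0.000585) and rho = 0.89 (adjusted permutation p = 0.000877). Their r was 0.93 in the 11 libraries richer in retina, 0.96 in the other 14, 0.91 without the 2 libraries farthest from the median and 0.93 without female control 3, the shallowest. Ms and Orcokinin had r = 0.91 (adjusted permutation p = 0.000585) and rho = 0.89 (adjusted permutation p = 0.000877). Their r was 0.78 in the 11 libraries richer in retina, 0.94 in the other 14, 0.87 without the 2 libraries farthest from the median and 0.90 without female control 3. Trissin with Ms had r = 0.88 (adjusted permutation p = 0.000585) and rho = 0.82 (adjusted permutation p = 0.00201), and AstC with Ms had r = 0.88 (adjusted permutation p = 0.000585) and rho = 0.87 (adjusted permutation p = 0.000877). The low end of all 4 genes was female PDE 5 in the female PDE group and female control 3 among female controls. Trissin had 61.1, 61.1, 37.1, 64.3 and 63.1 RPKM in the 5 female controls, and Orcokinin 87.5, 72.9, 37.9, 66.9 and 76.5 RPKM.

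A second set held NPF, whose partners were Dh31, SIFa and ITP. Dh31 with NPF had r = 0.80 (adjusted permutation p = 0.00078) and rho = 0.77 (adjusted permutation p = 0.00415), and r within the 11 and the 14 libraries was 0.80 and 0.72. NPF with SIFa had r = 0.79 (adjusted permutation p = 0.000585) and rho = 0.78 (adjusted permutation p = 0.00175) and ITP with NPF r = 0.77 (adjusted permutation p = 0.00078) and rho = 0.78 (adjusted permutation p = 0.00175). Without the 2 farthest libraries the 3 values of r were 0.76, 0.78 and 0.71. The lowest correlation was that of Akh with AstCC, with r = -0.61 (adjusted permutation p = 0.0268) and rho = -0.46 (adjusted permutation p = 0.141); it was -0.40 without its 2 farthest libraries. The closest partner of Pdf was Lk, with r = 0.64 (adjusted permutation p = 0.0202) and rho = 0.54 (adjusted permutation p = 0.0724). Over the whole table the genes most like Pdf in the 25 libraries were Aos1, CG32262, AlkB, CG13807 and CG46302, with r of 0.77, 0.77, 0.77, 0.75 and 0.72, given as a description.

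Some libraries held most peptide genes low at once. The median deviation of the 27 genes from their group mean was -0.25 in male PDE 5 and -0.12 in male PDE 3, -0.20 in female PDE 3 and -0.15 in female PDE 5. It was -0.14 in male control 7, -0.10 in male control 4 and -0.14 in female control 3. Each group had such libraries, and in them 18 to 22 of 27 genes lay below the group mean. At the other end stood male PDE 1 (0.15), male PDE 6 (0.15), male control 3 (0.14), female PDE 4 (0.14) and female control 5 (0.14). Female PDE 6 (0.11) and male control 1 (0.11) followed. Over all genes tested the same median ran from -0.14 (female control 3) to 0.07, and over the processing genes from -0.09 to 0.11. Of the 7 low libraries, male PDE 3 and 5, female PDE 3 and male controls 4 and 7 are among the 11 richer in retina. Female PDE 5 and female control 3 are not. Of the high libraries named, male PDE 1 and male control 1 are among those 11 and the others are not. Female control 3 is the shallowest library (8.88 M reads), while male control 7 and female PDE 3 are the deepest (58.7 and 48.3 M). The part of retina and depth in the low values was not tested.

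**Figure D4:**
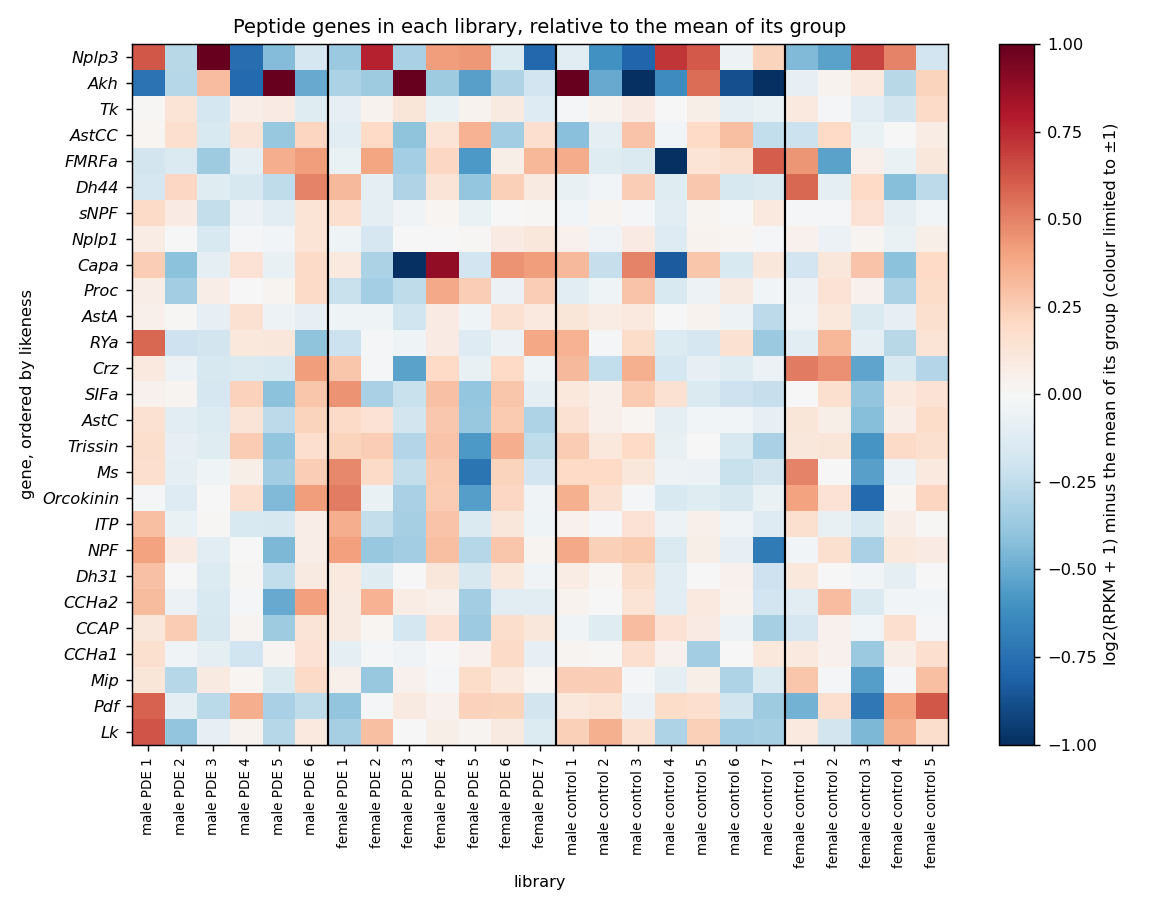
Deviation of 27 peptide genes (rows, ordered by likeness) from their group mean in log2(RPKM + 1), red above and blue below, in 25 libraries (columns, with lines between the 4 groups). The neighbouring rows of AstC, Trissin, Ms and Orcokinin are blue together in male PDE 5, female PDE 5 and female control 3 and red together in male PDE 6 and female PDE 4.

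Nplp3 and Akh varied widely between libraries of the same group. Nplp3, a small secreted precursor of unknown receptor, had 6.05 to 23.3 RPKM (median 9.22) in male PDE, 6.07 to 19.1 RPKM (median 10.8) in male controls, 5.12 to 16.96 RPKM (median 8.57) in female PDE and 9.93, 9.22, 22.6, 19.9 and 11.9 RPKM in female controls. The PDE minus control difference was -0.49 (SE 0.326) in females and -0.03 (SE 0.31) in males. The average of -0.26 became -0.151 with the retina covariate and -0.143 without the 5 retina-rich libraries, with no call in either. In a family of 4 relations Nplp3 was higher where the mean log2 value of 12 retina markers was higher, over the 25 libraries, with r = 0.68 (permutation p = 0.00051, adjusted p = 0.00204) and rho = 0.71 (permutation p = 0.0004, adjusted p = 0.0016), group means removed. Without the 2 libraries with the farthest retina values r was 0.61. Without the 5 richest libraries it was 0.482, also with group means removed. With group means left in, r was 0.59 within the 11 libraries richer in retina and 0.47 within the other 14. Sex and PDE can enter these 2 values, so they cannot be set beside the centred ones. The other 3 relations did not pass: Pdf with the retina markers (r = 0.12, adjusted p = 0.636), Akh with Lst (-0.18, 0.383) and Dh31 with CCHa1 (0.22, 0.383).

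Akh is made in the corpora cardiaca, an endocrine gland attached behind the brain. It had 0.117 to 6.64 RPKM (median 0.464) in male PDE, 0.583 to 57.2 RPKM (median 1.53) in male controls, 0.384 to 7.4 RPKM (median 0.618) in female PDE and 0.378, 0.495, 0.559, 0.199 and 0.698 RPKM in female controls. In 22 of 25 libraries it was below 5 RPKM, down to 1 read, and male control 1 held 961 reads. Akh reached 1 RPKM in male controls 1, 2, 4, 5 and 6, in male PDE 3 and 5 and in female PDE 3, and in no female control. It passed the filter of 5 libraries only through the male controls, so differences that involve this group are selected by it and are given as a description. The PDE minus control difference was -1.03 (SE 0.634) in males and 0.47 (SE 0.667) in females, and the male minus female difference among controls was 1.43 (SE 0.667, limma adjusted p = 0.29). Without male control 1 the difference in males was -0.38 (SE 0.438) and that among controls 0.78 (SE 0.459, limma adjusted p = 0.442). The averaged PDE difference of -0.28 was 0.04 without male control 1 and -0.47 without the 5 retina-rich libraries. Male PDE 5, the highest male PDE library of Akh, was also the highest library of Eh, with 2.31 RPKM. Whether the gland stayed on the dissected brains is not stated, and its part in these values was not tested.

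**Figure D5:**
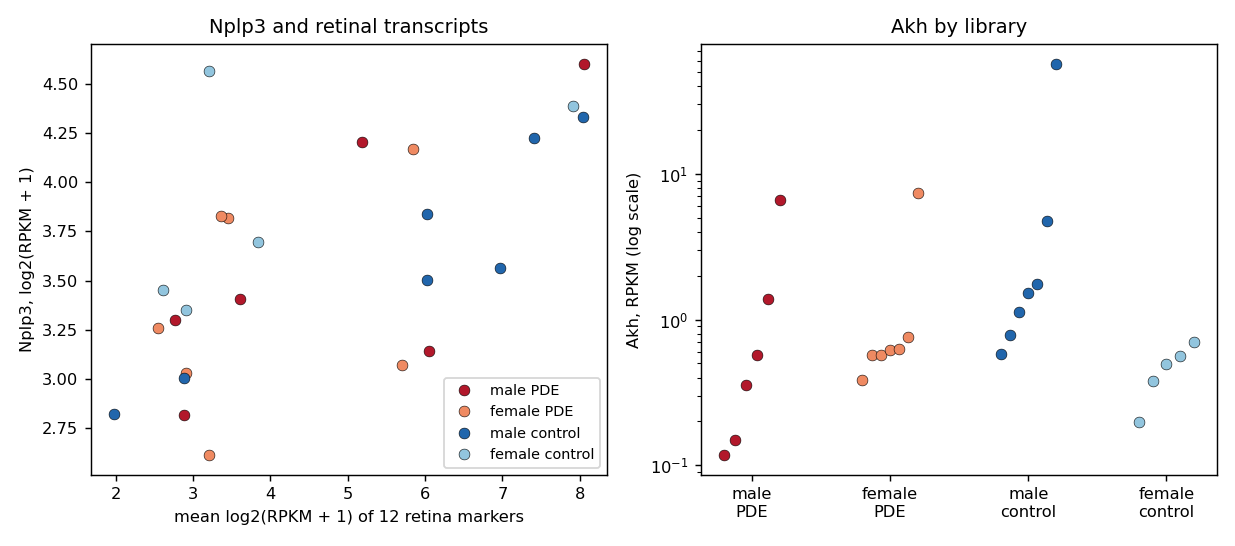
Left, Nplp3 in log2(RPKM + 1) against the mean log2(RPKM + 1) of 12 retina markers, 1 point per library, coloured by group; libraries with more retina RNA tend to have more Nplp3. Right, Akh in RPKM (log scale) in every library by group, with male control 1 at 57.2 RPKM far above the others.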

How the data were processed

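RNA from Drosophila melanogaster brains came from a Maxwell RSC simplyRNA extraction, and libraries were made with a SMART-Seq mRNA LP kit, per the labels' protocols. Reads were aligned with STAR to dm6, per the submitters' processing notes. The authors deposited 1 table of RPKM values for 16060 FlyBase identifiers in 25 libraries, and 15997 identifiers had a name in Ensembl 115 (BDGP6.54), the source of symbols and coordinates. The counter, strand setting and annotation used by the authors are not named in these sources. PDT in some titles was taken to mean PDE.

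The members, lists and tests were chosen with earlier results of these data known. All 38 members were to be named. Full values were to be given for members with an unadjusted p under 0.05 in any comparison, for 13 genes set by name (Ilp2, Ilp3, Ilp5 and Nplp2 among them) and for the 5 highest members. In the other lists, members called and up to 4 with the smallest averaged p were to be named. Values of Capa, Trissin, SIFa, AstC, Orcokinin and CNMa were added after they were seen.

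Genes reaching 1 RPKM in 5 or more libraries (7985) were fitted with limma 3.58.1 in R 4.3.3 on log2(RPKM + 1), with 4 groups in 1 model, a trended prior and Benjamini-Hochberg adjustment; a call is an adjusted p under 0.05. Whole reads were recovered from the RPKM steps for 13578 of 13581 genes above 0 (tolerance 0.001), with gene spans including introns as lengths, which gave library totals and a voom fit. Correlations used group-centred values and 100000 permutations within groups (Python 3.11.15, numpy 2.4.6, scipy 1.17.1). The limma script was tested on simulated data. Alternatives were other pseudocounts (0.1 and 5), filters and scalings, array weights, a retina covariate, a replicate block, the 2 groups compared alone, and leaving out libraries. The replicate numbers in the titles were not taken to pair libraries. No sequences were used.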

Additional observations from a re-analysis of the deposited data

Results flagged for a closer look

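In each group of 5 to 7 libraries, a value was marked where its gap to the nearest other library, as a share of the range of the group, passed Dixon's critical value; chance marks about 1 in 20 groups. Of 124 combinations of a gene and a group 12 were marked (9.68%). Akh and Eh gave 4 of them. Akh in male control 1 had 57.2 RPKM, against 0.583 to 4.75 RPKM in the other libraries of the group, and this library held 961 Akh reads. Akh in male PDE 5 had 6.64 RPKM, against 0.117 to 1.38 RPKM in the other libraries of the group. Akh in female PDE 3 had 7.4 RPKM, against 0.384 to 0.763 RPKM in the other libraries of the group. Eh in male PDE 5 had 2.31 RPKM, against 0.0895 to 0.161 RPKM in the other libraries of the group, with 143 reads.

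Female control 3, the library with the fewest reads, gave 3 low values. Trissin in female control 3 had 37.1 RPKM, against 61.1 to 64.3 RPKM in the other libraries of the group. AstC in female control 3 had 18.9 RPKM, against 26.8 to 29.3 RPKM in the other libraries of the group. CCHa1 in female control 3 had 3.04 RPKM, against 4.37 to 4.88 RPKM in the other libraries of the group. The other marked values stood in different libraries. CCHa1 in male control 5 had 3.02 RPKM, against 4.1 to 4.75 RPKM in the other libraries of the group. Mip in female PDE 2 had 12.3 RPKM, against 16.2 to 18.7 RPKM in the other libraries of the group. sNPF in female PDE 1 had 36.1 RPKM, against 29.8 to 32.5 RPKM in the other libraries of the group. CCHa2 in female control 2 had 6.09 RPKM, against 4.16 to 4.61 RPKM in the other libraries of the group. ETH in female control 1 had 0.618 RPKM, against 0.138 to 0.263 RPKM in the other libraries of the group, from 11 reads.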

How the results depend on the processing

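No peptide gene was called for PDE under any alternative. The 3 male against female calls among controls became 1 with no filter on low values, 0 with the retina covariate and 0 without the 5 retina-rich libraries, where the differences of ITP, Nplp1 and Proc were -0.33, -0.15 and -0.37 with the first and -0.33, -0.18 and -0.48 with the second, and ranged from 0 to 3 when single libraries were left out. The 1 call after PDE became 2 with voom, 0 with only the 2 groups compared, and ranged from 1 to 2 when single libraries were left out. With no filter 13581 genes are tested in place of 7985; for the others the cause was not tested. Averaged PDE differences near 0 turned sign. That of Akh (-0.28) ranged from -0.481 to 0.0433 with single libraries left out and was above 0 without male control 1, that of Nplp1 (-0.01) from -0.0266 to 0.00209, that of Pdf (-0.05) from -0.14 to 0.0268, and that of sNPF (0.0034) from -0.0156 to 0.027. Pdf was 0.0485 without the 5 retina-rich libraries. sNPF was -0.0161 with quantile normalization, -0.014 with median centring and -0.0102 with the retina covariate. The correlation of Nplp3 with retina was 0.48 without the 5 retina-rich libraries. Every other result examined kept its direction under its 36 or 37 alternatives, and the calls lost or gained are given beside each gene.

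A fit with the replicate number as a block gave the same counts, 3 and 1 between the sexes and 0 for PDE, and sNPF was -0.00215 in it. Of 34 same-numbered pairs of libraries 16 correlated above 0.1 in their deviations from the group mean, and 3 of 25 libraries correlated best with their own number, so the block does not stand for a pairing. Low read numbers limit ETH, Nplp4, Eh and CNMa, which were under the filter. They also limit RYa (5 to 25 reads per library) and Akh (median 10 reads), which were tested.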
